A study of Drosophila melanogaster with 2 samples.

Results

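Mad-eGFP, a tagged form of the transcription factor that carries the Dpp (bone morphogenetic protein) signal into the nucleus, gave a reproducible promoter peak at 20 of 87 Drosophila genes for the respiratory chain and the ATP synthase (23%), beside 19.7% of all protein-coding genes. The 87 genes are the protein-coding genes of the Ensembl annotation whose symbols begin with ND- (complex I), Sdh and a capital letter (complex II), UQCR- (complex III), COX and a digit (complex IV) or ATPsyn (complex V, the ATP synthase), out of 13945 protein-coding genes on the main chromosome arms. All 20 genes with a peak were among 63 principal genes. None was among 24 like-named copies, whose symbols end in L or in L and a digit and which are mostly known in Drosophila as duplicates expressed in the testis.

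Chromatin was precipitated with an anti-GFP antibody from whole embryos, 0 to 24 h old and of both sexes, of 1 transgenic Drosophila melanogaster line that stably expressed Mad with GFP at its C terminus. The 2 biological replicates formed 1 group with nothing to compare it with, so each count below describes where peaks lay. The labels name no promoter for the transgene, and the embryos were taken whole, so a few cells with strong occupancy and many cells with weak occupancy cannot be told apart. Each replicate had a list of 30000 peaks, and a pooled list of both held 30000. A thresholded list, called the reproducible list here, held the 3590 peaks left after the authors' threshold on reproducibility between replicates. The name stands for that threshold, and does not mean that each peak was strong in both replicates. At every respiratory chain gene with a peak in it, the rank was the same as in the pooled list. A listed peak could be weak in 1 replicate, as at ND-B17.2, with 51.0 in replicate 1 and 16.4 in replicate 2. A gene was given a promoter peak when the summit of a peak lay within 500 bp of any of its annotated transcription starts. Signal is the authors' own value for a peak, without a stated formula, and it is read only within a list. How deeply the libraries were read is not stated in the sources used.

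The respiratory chain passes electrons from NADH, through complex I, or from succinate, through complex II, by way of ubiquinone to complex III, then through cytochrome c to complex IV and oxygen. Complexes I, III and IV pump protons across the inner mitochondrial membrane, and the ATP synthase makes ATP as the protons return. A few of the subunits are encoded by mitochondrial DNA. The rest are nuclear genes, and those that fit the symbol rule are studied here, together with the like-named copies. All cells with mitochondria use such subunit genes, which does not hold for copies expressed in the testis. Many of the nuclear subunit genes are known to carry core promoter elements of broadly expressed genes in Drosophila. Examples are the DREF, M1BP and Ohler elements, rather than a TATA box.

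The following windows of 121 bp show the sequence under 5 of the reproducible summits, printed on the strand of the gene from 60 bp before to 60 bp after the summit in build dm6. They are ND-51 at chr2L:6062816-6062936, ND-ASHI at chrX:6679302-6679422, COX5A at chr3R:11819452-11819572, COX6B at chrX:19744332-19744452 and ND-B17 at chr2L:15751080-15751200. The first 4 belong to the strongest peaks of the set, and ND-B17 was added because its window held the most matches. Capitals mark matches to the Ohler 6 element (GTATATTT or GTATTTTT), the Ohler 7 element (CANCNCTA) and the M1BP element (GGTCACACT), on either strand. The windows of ND-51 and ND-ASHI, the strongest of the set, held no match to any of 12 motifs searched.
ND-51: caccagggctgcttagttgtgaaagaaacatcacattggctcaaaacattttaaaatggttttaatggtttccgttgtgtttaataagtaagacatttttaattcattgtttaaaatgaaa
ND-ASHI: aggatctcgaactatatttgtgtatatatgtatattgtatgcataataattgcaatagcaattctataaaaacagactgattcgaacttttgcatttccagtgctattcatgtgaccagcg
COX5A: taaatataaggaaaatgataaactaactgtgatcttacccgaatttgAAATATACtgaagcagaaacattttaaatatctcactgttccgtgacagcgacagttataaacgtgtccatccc
COX6B: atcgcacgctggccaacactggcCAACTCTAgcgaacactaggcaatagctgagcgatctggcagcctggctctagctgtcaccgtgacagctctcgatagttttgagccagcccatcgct
ND-B17: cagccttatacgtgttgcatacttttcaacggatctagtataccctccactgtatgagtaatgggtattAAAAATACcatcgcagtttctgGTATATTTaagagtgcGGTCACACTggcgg

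The M1BP element recurred in the promoters of the genes with a peak. Stretches of 61 bp around it are printed here on the strand of each gene, with the element in capitals, for ND-B17, UQCR-Q, COX5A, COX5B, COX7B and ATPsynC. It read on the gene's own strand in 5 of them and on the opposite strand, as AGTGTGACC, in COX5A. In order, the stretches lie at chr2L:15751059-15751119, chr3L:17475052-17475112, chr3R:11819297-11819357, chr2L:6557786-6557846, chr3L:17425460-17425520 and chr3R:31219762-31219822. The element began at position -15 of ND-B17, 29 of UQCR-Q, -36 of COX5A, 12 of COX5B, 9 of COX7B and -237 of ATPsynC. Position 0 is the annotated start of the canonical transcript. On this scale the summit lay at 153 in COX5A and at -125 in ATPsynC. The summit distances given below for these genes are from another, nearer start.
ND-B17: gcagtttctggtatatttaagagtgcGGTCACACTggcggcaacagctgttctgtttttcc
UQCR-Q: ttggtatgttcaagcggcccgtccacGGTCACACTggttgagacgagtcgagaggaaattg
COX5A: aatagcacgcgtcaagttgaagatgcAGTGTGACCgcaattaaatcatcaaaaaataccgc
COX5B: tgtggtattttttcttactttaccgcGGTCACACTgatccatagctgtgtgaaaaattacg
COX7B: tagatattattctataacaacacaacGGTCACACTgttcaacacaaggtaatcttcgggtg
ATPsynC: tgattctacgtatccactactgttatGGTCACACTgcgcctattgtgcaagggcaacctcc

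Set against the genome, the share of respiratory chain genes with a reproducible promoter peak was close to that of all genes. It was 23% (20 of 87), and 19.7% of all protein-coding genes (2753 of 13945) had one. The principal genes stood at 31.7% (20 of 63) and the copies at 0 of 24. In the pooled list, which also holds the weaker peaks, 55 of the 87 genes (63.2%) had a promoter peak, beside 55% of all genes. There the principal genes reached 82.5% (52 of 63) and the copies 12.5% (3 of 24). Other housekeeping sets ranged more widely under the same rule. Cytosolic ribosomal protein genes stood at 72.8% (67 of 92), mitochondrial ribosomal protein genes at 42.5% (31 of 73) and proteasome subunit genes at 18.8% (9 of 48). No test was made of these shares.

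**Figure D1:**
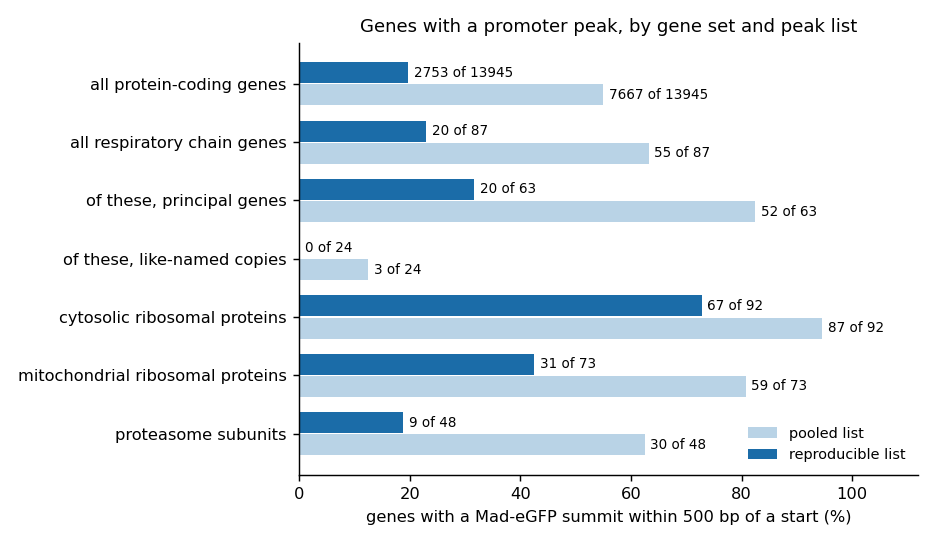
Bars show the percentage of genes with a Mad-eGFP summit within 500 bp of a start, in the reproducible list (dark) and in the pooled list (light), for all genes, the respiratory chain genes and 3 comparison sets. The respiratory chain genes (20 of 87) stand near all genes (2753 of 13945), and the like-named copies are at 0 of 24 in the reproducible list.

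By complex, a reproducible promoter peak was present at 10 of 34 principal genes of complex I, 2 of 4 of complex II and 1 of 6 of complex III. It was present at 4 of 8 of complex IV and 3 of 11 of complex V. The share over all protein-coding genes was 19.7%. Median signals of the peaks were 123 for complex I, 75.9 for complex II and 77.9 for the single gene of complex III. They were 137 for complex IV and 103 for complex V. The reproducible list as a whole spans signals of 70.5 to 1447. Over all 20 member peaks the median was 118, with a range of 70.8 to 258, and over the 2090 reproducible promoter peaks of all protein-coding genes it was 109, with quartiles of 84.1 and 159. Of the 20, 11 lay above that median. None lay among the 100 strongest peaks, 2 lay among the 500 strongest and 6 among the 1000 strongest. Rank 1000 lies 27.9% from the top of the whole list, so 6 of 20 is near the share of that list.

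**Figure D2:**
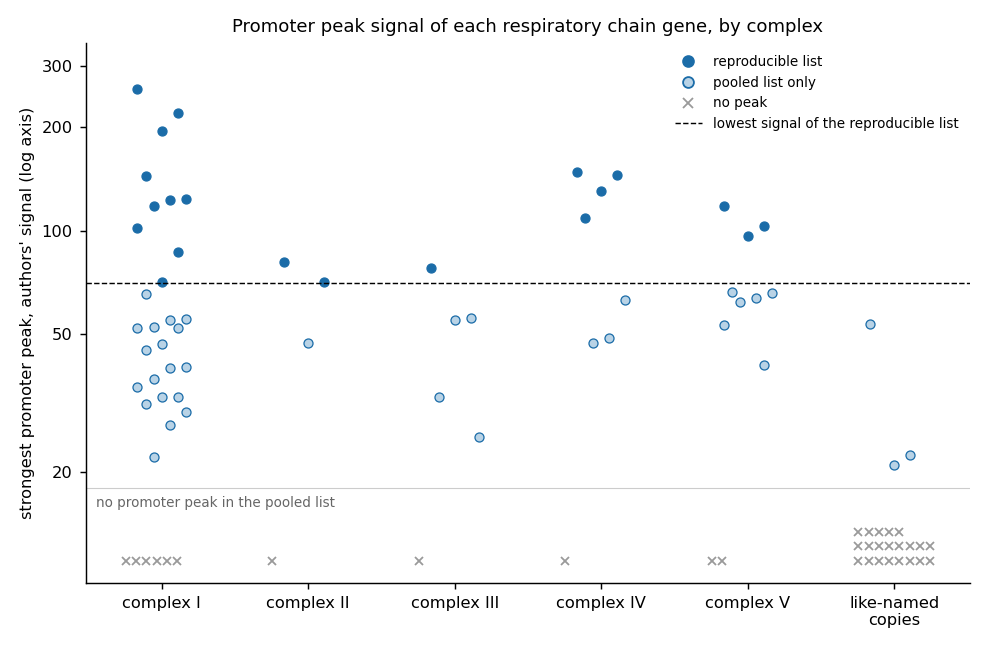
Each symbol is 1 gene, with the authors' signal of its strongest promoter peak on a log axis, for the principal genes of complexes I to V and for the like-named copies. Dark circles are in the reproducible list, light circles in the pooled list only, and crosses below the grey line have no promoter peak in either. The highest values belong to complex I (ND-51 at 258), and 21 of 24 copies are crosses.

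Complex I takes electrons from NADH, and its strongest peak lay at the gene for the subunit that binds NADH. ND-51 (FBgn0031771), which encodes the flavoprotein that binds NADH, had signals of 107 in replicate 1 and 143 in replicate 2, and 258 in the reproducible list at rank 268. Its peak (chr2L:6062678-6063073) had its summit at 6062876, in intergenic DNA at -119 bp from the ND-51 start and 113 bp from the start of the divergent neighbour CG13994, where negative distances lie upstream. ND-24 (FBgn0030853), an iron-sulfur subunit beside ND-51 in the electron input module, had signals of 73.9 and 70.5 in the replicates and 144 at rank 1000. Its summit, at position 17632138 of the X chromosome, fell at 49 bp, in the 5′ UTR of ND-24. ND-20 (FBgn0030718), which carries the last iron-sulfur cluster before ubiquinone, had signals of 53.9 and 45.4 in the replicates and 102 at rank 1927, with its summit at 15986860 of the X chromosome, -52 bp from its start. These were 3 of the 7 nuclear core subunits of complex I, beside 19.7% of all genes with such a peak.

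The other core subunits of complex I were weaker. ND-23 had a pooled-list signal of 52.3, ND-30 of 37.3 and ND-75, which carries several iron-sulfur clusters, of 32.9. No pooled peak lay at the promoter of ND-49, on chromosome 4. Replicate signals were 22.3 and 33.2 for ND-23 and 23.4 and 27.3 for ND-30, and ND-75 was listed in replicate 2 alone, at 25.7. The summit of ND-30 lay 53 bp from the start of CG15812 and that of ND-23 lay 47 bp from the start of spn-E, so both were nearer to a neighbour than to the core subunit.

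The accessory subunits of complex I surround the core and do not carry electrons. They held 7 of the 20 peaks, from 27 principal genes, beside 19.7% of all genes with a peak. ND-ASHI (FBgn0029888) was second in the whole set, with signals of 81.1 and 137 in the replicates and 219 at rank 404. Its summit at 6679362 of the X chromosome lay at -244 bp from the ND-ASHI start, within an intron of Fum1 and at -278 bp from another start of that gene. Fum1 encodes fumarase of the citric acid cycle, and the same summit counts for both genes. ND-MWFE (FBgn0085468) had signals of 84.1 and 111 in the replicates and 194 at rank 516. Its summit at 13158481 of arm 2R lay at -185 bp but only 36 bp from the start of TppII, a large peptidase.

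ND-B17 (FBgn0001989), with 1 of the windows printed above, had signals of 67.2 and 53.4 in the replicates and 124 at rank 1361. Its summit at 15751140 of arm 2L was at -62 bp, with no other gene's start within 500 bp. ND-SGDH (FBgn0011455) had 62.3 and 56.7 in the replicates and 122 at rank 1379, with its summit at 12138761 of arm 3L, -177 bp from its own start and 107 bp from that of RhoGAP68F. ND-42 (FBgn0019957) had 67.7 and 56.0 in the replicates and 118 at rank 1502. Its summit at 22027418 of arm 3R was the farthest of the set, at -291 bp, and lay in the 5′ UTR of Cchl, 62 bp from the start of that gene. Cchl encodes the lyase that attaches heme to cytochrome c, the electron carrier between complexes III and IV. The remaining accessory genes with a peak were ND-B18 at 86.8 and ND-B17.2 at 71.1, the latter just inside the list.

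Complex II, succinate dehydrogenase, also belongs to the citric acid cycle, and its peaks lay at the genes of its membrane anchors. SdhC (FBgn0037873) had signals of 33.1 and 48.2 in the replicates and 80.9 at rank 2859. The summit at 11210067 of arm 3R lay at -218 bp, and 180 bp from the start of Tctp. SdhD (FBgn0039112), the other anchor, had 29.9 and 44.5 in the replicates and 70.8 at rank 3567, at 23760563 of arm 3R and 37 bp into the transcript. SdhB, the iron-sulfur subunit, had a pooled-list signal of 47.3, with 14.9 and 36.0 in the replicates. SdhA, the flavoprotein that oxidises succinate, had no pooled promoter peak. In both genes with a reproducible peak replicate 2 was higher, and neither was among the 3590 strongest peaks of replicate 1.

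Complex III had a single gene with a reproducible peak. UQCR-Q (FBgn0036728), a small subunit, had signals of 46.7 and 25.8 in the replicates and 77.9 at rank 3057. Its summit at 17475038 of arm 3L lay in the 5′ UTR, -11 bp from the nearer of its 2 annotated starts. The large core proteins had weaker peaks. UQCR-C2 had a pooled-list signal of 56.0, with 23.3 and 39.0 in the replicates. UQCR-C1 had 33.0, was listed in replicate 2 alone at 19.5, and its summit lay 6 bp from the start of CycC.

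Complex IV, cytochrome c oxidase, had peaks at 4 of 8 principal genes, beside 19.7% of all genes. The lowest signal of these 4 peaks was 109. COX5A (FBgn0019624) had signals of 84.4 and 62.1 in the replicates and 148 at rank 943. Its summit, at 11819512 of arm 3R, lay in an intron of COX5A and at -87 bp from the nearest of its starts. COX6B (FBgn0031066), a subunit on the outer face of the complex, had 69.9 and 72.5 in the replicates and 145 at rank 992. The summit at 19744392 of the X chromosome lay at -57 bp, but 39 bp from the start of CG33932. COX5B (FBgn0031830), the zinc-binding subunit, had 68.6 and 59.2 in the replicates and 130 at rank 1207. Its summit at 6557567 of arm 2L lay at -233 bp, and 65 bp from the start of IFT52, a gene of transport within cilia. COX7B (FBgn0040793) had 49.2 and 60.7 in the replicates and 109 at rank 1726, at 17425387 of arm 3L and -90 bp. COX4, another nuclear subunit, had no pooled promoter peak.

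In complex V, reproducible peaks lay at ATPsynE, ATPsynF and ATPsynC. ATPsynE (FBgn0038224), for the small subunit e of the membrane part, had signals of 71.3 and 44.7 in the replicates and 118 at rank 1499, with its summit at 14326986 of arm 3R, 39 bp into the transcript. ATPsynF had 54.4 and 47.7 in the replicates and 103 at rank 1891. ATPsynC (FBgn0039830), which encodes the subunit of the rotating ring that carries the protons, had 35.3 and 59.1 in the replicates and 96.7 at rank 2106. Its summit at 31219684 of arm 3R lay at -54 bp. ATPsynbeta, which holds the catalytic sites, missed the list with a pooled signal of 62.2. Its summit lay exactly on the nearer of its 2 annotated starts (0 bp), in the 5′ UTR. ATPsynbeta had a signal of 58.1 in replicate 2 and no overlapping peak in replicate 1.

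A band of genes lay close under the threshold. The lowest signal in the reproducible list was 70.5, and the nearest genes inside it were SdhD at 70.8 and ND-B17.2 at 71.1. The nearest outside were ATPsynD at 66.5, ATPsynCF6 at 66.0, ND-B22 at 65.6, ATPsyngamma at 63.8 and COX7C at 62.7. In all, 35 genes had a promoter peak in the pooled list only, with signals from 21.0 to 66.5 and a median of 47.1, where each gene is given its strongest pooled promoter peak. Over the 4914 protein-coding genes with a promoter peak in the pooled list only, counted in the same way, the median was 38.7. Principal genes with no pooled promoter peak numbered 11, namely ND-49, ND-AGGG, ND-B14, ND-B14.7, ND-B16.6, ND-PDSW, SdhA, UQCR-11, COX4, ATPsynG and ATPsyndelta.

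The like-named copies were nearly free of peaks, weak ones included. Of the 24 copies, 21 had no promoter peak in the pooled list. The remaining 3 had pooled-list signals of 53.6 for UQCR-6.4L, 22.3 for COX6AL and 21.0 for COX5BL, where the lowest signal in that list was 20.9. The summit of UQCR-6.4L lay at -499 bp, in an intron of Mipp1, with signals of 13.5 and 39.9 in the replicates. COX5BL is the gene that follows COX5B on arm 2L, and its summit lay in the 3′ UTR of COX5B. Neither COX5BL nor COX6AL had an overlapping peak in the list of either replicate.

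The genes that the copies resemble number 21, of which 3 (levy, cype and sun) have names outside the symbol rule. Of these 21 genes, 6 had a reproducible promoter peak and 15 a pooled one, beside 19.7% and 55% of all genes. ND-51, with a signal of 258, had copies ND-51L1 and ND-51L2 with no pooled promoter peak, and the same was seen for ND-24 at 144 beside ND-24L, ND-20 at 102 beside ND-20L and SdhC at 80.9 beside SdhCL. COX5B at 130 stood beside COX5BL at 21.0. The other pair with a reproducible peak was levy, the cytochrome c oxidase subunit gene at 126, whose copies are COX6AL and COX6AL2. The levy summit lay at -160 bp and nearest to wmd. Those of ND-51, SdhC and COX5B were also nearer to another gene's start. The copies were shorter genes, with a median span of 744 bp beside 1178 bp for the principal genes, and 21 of 24 had a single annotated start, beside 31 of 63 principal genes. Fewer starts leave fewer bases within 500 bp of one, and the part of this in the counts was not tested.

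Most of the peaks ranked high in both replicates, but the list was drawn from these same replicates, so this is no separate support. Of the 20 peaks, 16 (80%) were among the 3590 strongest of both replicates, beside 76.5% of all promoter peaks. ND-B17.2 and UQCR-Q were among them in replicate 1 only, and SdhC and SdhD in replicate 2 only. ND-B17.2 was the most uneven, with signals of 51.0 in replicate 1 and 16.4 in replicate 2, a log2 ratio of -1.63. The median log2 ratio of replicate 2 to replicate 1 was -0.10 (SD 0.58) over the 20 peaks and 0.25 (SD 0.46) over 2086 promoter peaks with a value in both. Replicate 2 was the higher in 9 of 20 member peaks (45%) and in 1535 of 2086 promoter peaks (73.6%). This difference was not tested.

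**Figure D3:**
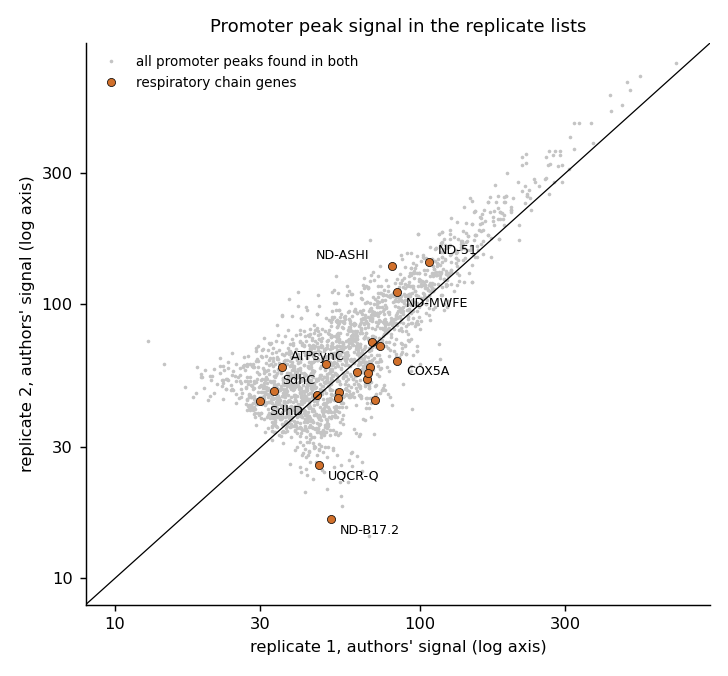
The authors' signal in replicate 1 (horizontal) and replicate 2 (vertical) is plotted on log axes for 2086 promoter peaks (grey) and the 20 peaks at respiratory chain genes (orange), with the line of equal values. ND-51, ND-ASHI and ND-MWFE lie above the line and highest, and ND-B17.2 and UQCR-Q lie farthest below it.

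Summits lay close to the start and mostly upstream. The median position over the 20 genes was -59.5 bp, from -291 to 49 bp, with 16 upstream (80%). Over all genes with a promoter peak the median was -107 bp, with 87.3% upstream. Within 100 bp of the start lay 13 of 20 member summits (65%), beside 44.1% for all genes. The summits of 13 genes (65%) were nearest to their own start, beside 71% of all genes with a promoter peak. These 13 lay at a median of -52 bp. Those of 7 (ND-51, ND-MWFE, ND-SGDH, ND-42, SdhC, COX5B and COX6B) were nearer to the start of another gene, at a median of -185 bp. The second class held the higher signals, with a median of 130 and a range of 80.9 to 258, beside a median of 103 and a range of 70.8 to 219, so the ranges overlapped widely. By annotation, 10 summits were intergenic and 10 within a gene.

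**Figure D4:**
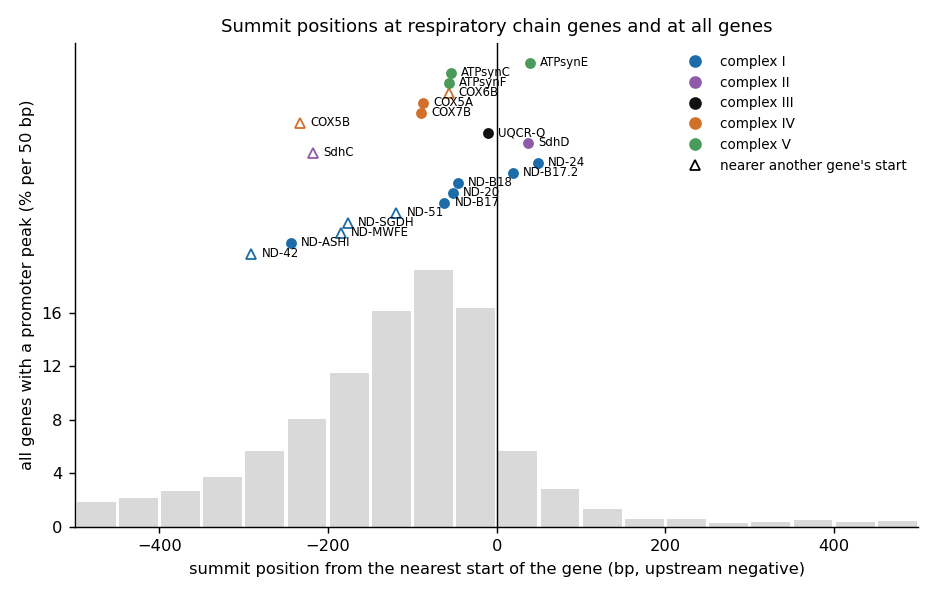
Grey bars give the percentage of all genes with a promoter peak by summit position in bins of 50 bp, and symbols above them show the 20 respiratory chain genes at their own summit position, with their height in the panel carrying no value. Open triangles mark the 7 genes whose summit is nearer to another gene's start, which all lie upstream of their own.

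A shared promoter was common among these genes. A gene was called head-to-head when a start on the other strand lay within 500 bp upstream of its own. For a gene with a reproducible peak only its start nearest the summit was used, and for a gene without one any of its starts. By this rule 35 of 63 principal genes (55.6%), 3 of 24 copies (12.5%) and 28.9% of all genes were head-to-head. Of all head-to-head genes, 37% (1493 of 4035) had a reproducible promoter peak, and of the others 12.7% (1260 of 9910). The respiratory chain genes stood close to these shares, with 14 of 38 head-to-head genes (36.8%) and 6 of 49 others (12.2%). Among the principal genes it was 14 of 35 (40%) and 6 of 28 (21.4%). With any start used for every gene, the shares were 38.5% and 11.8% of all genes, and 38.5% and 10.4% of the respiratory chain genes. Another gene's start lay within 500 bp of the summit at 16 of the 20 genes (80%), beside 59.5% of all genes with a peak, and at such a summit the gene to which it belongs cannot be told from position.

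Beside those already named, the neighbours that shared a summit were corolla with ND-24, Arpc5 with ND-B17.2, hiw with ND-B18, CG46525 with UQCR-Q, glo with COX5A, Sec3 with COX7B, Afti with ATPsynE and CG3548 with ATPsynF. COX6B shared its summit with 3 genes, CG18809, CG33932 and Rpp20. No other start lay within 500 bp of the summits of ND-20, ND-B17, SdhD and ATPsynC. These 4 summits lay between -62 and 37 bp of the gene's own start, with signals from 70.8 to 124.

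In the promoter windows, from 250 bp before to 50 bp after the start of the canonical transcript, the M1BP element (GGTCACACT, both strands), bound by a zinc finger factor of housekeeping promoters, was found at 7 of the 20 genes with a peak (35%). The seventh, beside the 6 printed above, was ND-MWFE, with the element at position 24. It was found at 8 of 43 principal genes without a peak (18.6%), at 1 of 24 copies (4.17%, COX7AL) and at 5.87% of all genes. Read the other way, 7 of 15 principal genes with the element had a reproducible peak (46.7%) and 13 of 48 without it (27.1%), beside 33.6% and 18.9% of all genes. The element was often away from the summit, since only 2 of 20 summits held it within 100 bp, ND-B17 and UQCR-Q, beside 5.31% of all promoter summits. In COX5B the summit lay at -233 bp and the element began at 12 bp.

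The Ohler 6 element was present in 8 of 20 promoter windows with a peak (40%), in 8 of 43 of the other principal genes (18.6%), in 8.33% of the copies and in 12.1% of all genes. It also lay near the summit, within 100 bp at 5 of 20 summits (25%, at ND-20, ND-B17, SdhC, COX5A and ATPsynF), beside 10.3% of all promoter summits. The DREF element (TATCGATA), bound by a factor of replication and growth genes, was found in 0 of 20 windows of genes with a peak and in 8 of 43 of the other principal genes (18.6%), beside 8.95% of all genes. Those 8 were ND-19, ND-23, ND-B14.5A, ND-B15, ND-MNLL, UQCR-14, COX4 and COX7A. Within 100 bp of a summit the DREF element was found at 1 of 20, ATPsynE, beside 10.2% of all promoter summits. The groups are small, and a match is a run of letters and not a bound site.

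The element known from Drosophila as the nuclear respiratory gene element (TTACATAA, TTACGTAA, TTATATAA or TTATGTAA) was found in the promoter windows of 2 of 20 genes with a peak, ND-42 and ND-SGDH, and of 3 of 43 other principal genes, beside 5.13% of all genes. Around the summits it was found at 1 of 20 within 100 bp (5%), ND-SGDH, beside 3.44% of all promoter summits, and at 5 of 20 within 200 bp (25%), beside 7.32%. A GC-rich Mad motif (GCCGNCG) lay within 100 bp of 2 of 20 summits (10%), ND-20 and ND-B18, beside 5.22% of all promoter summits, and in 2 of 20 of their promoter windows (10%), beside 10.6% of all genes. The E-box CAGCTG lay within 100 bp of 6 of 20 summits (30%), beside 13.8%, and in ND-B18 it occurred at 3 places there. In the promoter windows it was found at 25% of genes with a peak, 37.2% of the other principal genes and 17.9% of all genes. The Ohler 7 element lay within 100 bp of 25% of the summits of genes with a peak, beside 19.8% of all promoter summits. Its share of promoter windows was 25% for genes with a peak, 25.6% for the other principal genes and 15.4% for all genes. No copy held the Ohler 7, DREF or nuclear respiratory gene element. Median GC content of the windows was 36.5% for genes with a peak, 33.6% for the other principal genes, 33.7% for the copies and 38.2% for all genes.

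**Figure D5:**
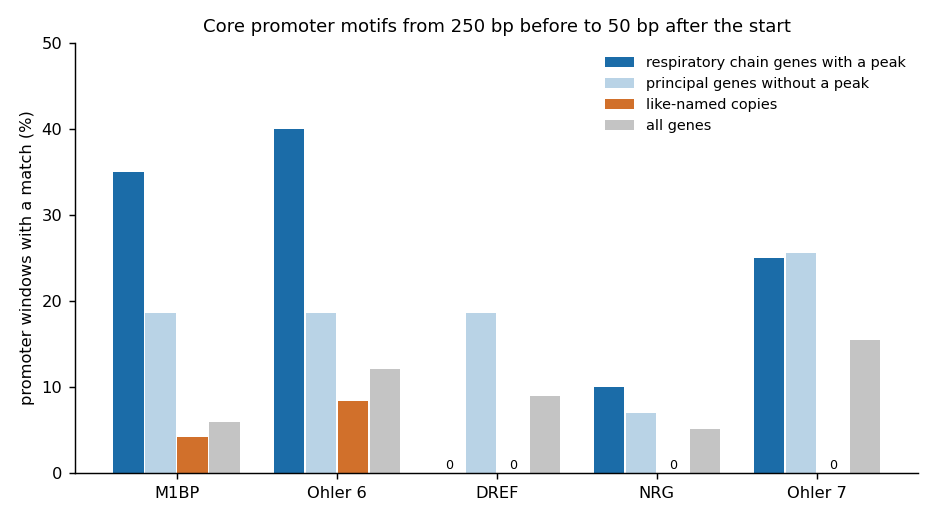
Bars give the percentage of promoter windows (250 bp before to 50 bp after the start) with at least 1 match to each motif on either strand, for the 20 genes with a peak, 43 principal genes without one, 24 copies and all genes. M1BP and Ohler 6 are highest at genes with a peak (35% and 40%), and DREF is at 0 there and at 18.6% in the other principal genes.

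Other genes of the chain carry names outside the symbol rule. Of 9 listed, 5 had a reproducible promoter peak and 8 a pooled one, beside 19.7% and 55% of all genes. The strongest was Cyt-c-d, a cytochrome c gene known for its use in the male germ line, at 274, with signals of 113 and 160 in the replicates. Its summit lay at 375 bp and nearest to CG31808. Next was blw, which encodes the alpha subunit of the ATP synthase, at 215, with 122 in replicate 2 and its summit at -115 bp. The others, chosen after their values were seen, were levy at 126, RFeSP, the Rieske iron-sulfur protein of complex III, at 104, and ox at 71.1. The summit of levy was nearest to wmd and that of ox to Dgkepsilon. Cyt-c-p, the main cytochrome c gene, had a pooled-list signal of 49.2. Of 11 assembly factors found in the annotation, 4 had a reproducible peak, beside 19.7% of all genes. CIA30, a complex I assembly factor, had 371, nearest to CG7601, and Ttc19, an assembly factor of complex III, had 172, nearest to Acn. Coa7 at 88.7 and Coa8 at 78.0 were named after their values were seen.

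The count of 20 genes depended on how a peak is tied to a gene. A distance of 250 bp gave 19 genes, beside 16.6% of all genes, and 1000 bp gave 22, beside 22.4%. Any overlap of the peak with the promoter gave 21, beside 21%. With a summit assigned only to the nearest start, 13 genes were left, beside 14.3% of all genes, and the 7 lost were those whose summit was nearer to another gene. The 1000 strongest peaks gave 6 genes, beside 6.5%. With the strongest 3590 peaks of replicate 2 alone the count was 22, beside 19.5%, and 18 of the 20 genes were kept. With those of replicate 1 alone it was 20, beside 19.8%, with 18 kept. ND-B22, UQCR-14, ATPsynD and ATPsynbeta joined in replicate 2 alone, and ND-18 and ATPsynCF6 in replicate 1 alone.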

How the data were processed

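Chromatin immunoprecipitation sequencing was done in 2 biological replicates of 1 group. The labels describe an anti-GFP precipitation, while their antibody field reads Mad, and chromatin was sonicated to 200 to 800 bp. The authors' deposited dm6 peak lists were used, with the signal of each peak as the authors' caller wrote it. The lists were made against a control and thresholded on the irreproducible discovery rate, per the texts deposited with the samples. The control was not used here. No source used here names the aligner, the caller or the depth. The dm3 lists were not used.

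Genes and starts came from Ensembl release 115 without transposable elements, on arms X, 2L, 2R, 3L and 3R and chromosome 4. Sequence came from the RefSeq genome, release 6, in which 99.8% of 30593 annotated start codons read ATG. A gene's peak is the strongest within 500 bp, and its replicate values are the strongest replicate peaks overlapping it by at least 1 bp. Matches of different motifs may overlap, and the Ohler 6 element has 2 forms. Pooled peaks, window widths, distances, the nearest start, the 1000 strongest peaks and single replicates were tried as alternatives. Python 3.11.15 and numpy 2.4.6 were used, and the procedure was tested on planted peaks and motifs.

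The genes and lists were chosen with earlier results of these data known, and no test was made. Named by rule were all genes with a reproducible peak, fixed core subunits and the 5 next below the threshold. Copies with a pooled peak and the 2 strongest of each further list were also named by rule. Some other genes were named outside these rules, among them Cyt-c-p, kdn, srl, ND-B14.5B and those marked as named after their values were seen. In the assembly factor list, 10 of 21 symbols had no match in the annotation and were not analysed here.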

Additional observations from a re-analysis of the deposited data

How the results depend on the processing

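Of the 87 genes, 13 (14.9%) had a promoter peak under the nearest start, beside 14.3% of all genes. Under the 1000 strongest peaks it was 6 (6.9%), beside 6.5% of all genes. By complex, the nearest start gave 6 of 40 genes for complex I, 1 of 7 for II and 2 of 16 for IV. The 1000 strongest peaks gave 4 of 40 for I and 2 of 16 for IV. They gave 0 of 7 for II, 0 of 9 for III and 0 of 15 for V. Under the nearest start, 15 of 73 mitochondrial ribosomal protein genes (20.5%) and 4 of 48 proteasome genes (8.33%) were left. The 1000 strongest peaks left 36 of 92 cytosolic ribosomal protein genes (39.1%), 8 of 73 mitochondrial ones (11%) and 2 of 48 proteasome genes (4.17%). Leaving out a replicate gave 0 to 2 of 7 genes for complex II and 4 to 5 of 15 for complex V. All genes stood at 19.5% without replicate 1 and 19.8% without replicate 2. SdhC and SdhD are absent from the strongest peaks of replicate 1. COX7AL2 was the 1 copy with a peak at 1000 bp or by any overlap, with a signal of 87.3 and its summit 615 bp from the start. At 250 bp between starts, 24 genes were head-to-head in place of 38. No share of all genes is given here for 250 bp, so this count cannot be set against the genome. With any start used, which was added after the data were seen, 39 were (44.8%), beside 29.6% of all genes. Within 50 and 200 bp of the summit, DREF was at 0 and 2 of the 20 genes (5.41% and 14.4% of all promoter summits), M1BP at 1 and 5 (2.58% and 9.23%), and the nuclear respiratory gene element at 0 and 5 (1.34% and 7.32%). Within 50 bp, CAGCTG was at 2 (7.18%), Ohler 7 at 2 (10.8%) and Mad at 1 (2.25%). Within 200 bp, the ETS motif was at 2 (11.1%) and the Zelda motif at 1 (1.63%). The cause of these differences was not tested beyond the narrower windows and shorter lists themselves. No paired analysis was possible because there is 1 group. The pooled list ends at 30000 peaks and a signal of 20.9, so a weaker peak at the 32 genes with none would not be listed.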

Other observations

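Genes of the citric acid cycle, which feeds complexes I and II, were listed together with some genes of related enzymes. Of the 15 listed, 6 had a reproducible promoter peak, beside 19.7% of all genes. The related enzyme genes were Mdh1, Idh, Pdha and Pdhb, and Pdhb, at 99.2, was among the 6. Idh3g, a subunit of the isocitrate dehydrogenase that makes NADH, was the strongest at 256, with signals of 116 and 139 in the replicates and its summit at -110 bp. Fum1 followed at 219, with the summit that it shares with ND-ASHI. Citrate synthase (kdn) had a pooled-list signal of 46.4, with its summit at -26 bp from a kdn start. A start of kdn lies head-to-head with ND-B16.6, at 228 bp between starts, and ND-B16.6 had no pooled promoter peak. The distance of -26 bp is therefore from a different kdn start, since a summit so near the shared promoter would also count for ND-B16.6. The kdn peak is thus no peak of the promoter shared by the 2 genes. Genes that maintain and express mitochondrial DNA had pooled promoter peaks at 10 of 11, beside 55% of all genes, but a reproducible one at a single gene, mtSSB, the mitochondrial single-stranded DNA binding protein, at 180. The next, mTerf5, had a pooled-list signal of 63.7.

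Of 8 genes for known regulators of nuclear mitochondrial genes, 3 had a reproducible promoter peak and all 8 had a pooled one, beside 19.7% and 55% of all genes. ERR, the estrogen-related nuclear receptor that drives a carbohydrate metabolism programme in the embryo, had 230.0, with its summit nearest to Atg18a. Dref had 205, nearest to RpL13. M1BP, named after its value was seen, had 138, nearest to CG8202. The gene srl, the fly homologue of the mammalian PGC-1 coactivators, had a pooled-list signal of 33.2 at 482 bp.

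ND-B14.5B lies beside the Mad gene. Its pooled promoter peak, at -248 bp, fell in the 3′ UTR of Mad, the gene whose tagged form was precipitated, and the nearest reproducible summit lay 848 bp from an ND-B14.5B start with a signal of 82.6. The pooled signal at -248 bp was 22.1. In the replicates' own lists, the strongest peaks that overlap it by at least 1 bp, which need not share its summit, had 27.7 and 33.8. Whether the transgene changes the signal there was not tested.

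None of the 20 summits of respiratory chain genes held the E-box CACGTG, the ewg motif GCATGCGC, the ETS motif CCGGAA, the GAGA motif GAGAGAG or the Zelda motif CAGGTAG within 100 bp, beside 3.06%, 0.239%, 5.98%, 4.16% and 0.574% of all promoter summits. No match says only that these letters are not in this window.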
